A study of Mus musculus with 26 samples.

Results

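Histone genes were followed across the 8 cell populations of the series. The members were all genes whose older symbol starts with Hist1h, Hist2h, Hist3h or Hist4h, which lie in the histone gene clusters, together with 7 variant genes that lie outside them (H1f0, H2afx, H2afy, H2afz, H2afv, H3f3a and H3f3b). Of 77 genes that met this rule in the RefSeq gene table, 39 were matched to a probe on the arrays, out of 32481 genes on the arrays in all. They were 32 of 70 clustered genes and 7 of 7 variant genes. By protein family, the clustered genes measured were 6 of 6 linker H1 genes, 10 of 20 H2A genes, 8 of 19 H2B genes, 3 of 12 H3 genes and 5 of 13 H4 genes. By cluster, 24 belonged to Hist1 on chromosome 13, 5 to Hist2, 2 to Hist3 and 1 to Hist4. The other 38 clustered genes had no probe matched to them and were not analysed here.

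Clustered histone genes supply the bulk of the core histones H2A, H2B, H3 and H4 and of linker histone H1 that package newly copied DNA. They are transcribed mainly in S phase, and most of their messages end in a stem-loop bound by the protein Slbp instead of a poly(A) tail. Variant genes carry introns or poly(A) signals of their own, are expressed throughout the cell cycle and encode histones that replace the standard ones at chosen places in chromatin. In human cells some clustered genes, HIST1H1C, HIST1H2AC and HIST2H2BE among them, are known to give polyadenylated messages as well. Erythroid cells condense their nuclei late in maturation, and the linker histone H1f0 is known to accumulate as many cell types stop dividing.

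The cells were EML, a line of mouse blood progenitors that needs stem cell factor and is named for its erythroid, myeloid and lymphoid potential. All groups came from this line, kept in IMDM with horse serum and medium conditioned with stem cell factor, and none carried a labelled genetic change. Sca1hi, CR Sca1lo and EryCP were fractions separated by flow cytometry on Sca1, CD34 and cKit, whose gates are not given, with 3 arrays each in a first array set. Ediff were cells negative for CD34 and cKit that arose from EryCP under erythropoietin (Epo), and they were measured beside EryCP cells taken again (EryCP repeat), with 3 arrays each in a second set. CD34- CD103- and CD34+ CD103- cells had 4 arrays each in the third set, with 3 arrays of CD34- CD103- cells after Epo (CD34- CD103- Epo). Sample titles of the third set start with EMLe2 in place of EML, and what this stands for was not determined. The dose and time of Epo are not given, and neither is whether samples of a group were grown separately, so that p-values measure the spread between samples, which may be technical. In such bulk samples, fewer cells of a type and less RNA per cell cannot be told apart.

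The stretches below are the 150 bases before the start of 6 members whose values the text turns on. They set beside each other genes of 1 family whose measured differences in Ediff had opposite signs. They are RefSeq entries of the build GRCm38.p6, written 5′ to 3′ on the gene's strand. Capitals mark the motif TATAAA known as the TATA box, the CCAAT box and the octamer motif ATTTGCAT, and where a motif lies on the opposite strand its reverse complement is marked. The ATTTGCAT octamer occurs in many H2B promoters and the CCAAT box is bound by NF-Y, and a match is a description only. Hist1h1c lies at chr13:23738657-23738806 (plus strand), Hist1h1b at chr13:21780626-21780775 (minus), Hist1h2ac at chr13:23683960-23684109 (minus), Hist1h2ab at chr13:23750938-23751087 (plus), H1f0 at chr15:79028062-79028211 (plus) and H2afy at chr13:56135551-56135700 (minus).
Hist1h1c: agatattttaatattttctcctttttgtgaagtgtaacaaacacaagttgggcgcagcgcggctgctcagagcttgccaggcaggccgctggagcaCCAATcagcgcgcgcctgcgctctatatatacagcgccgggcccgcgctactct
Hist1h1b: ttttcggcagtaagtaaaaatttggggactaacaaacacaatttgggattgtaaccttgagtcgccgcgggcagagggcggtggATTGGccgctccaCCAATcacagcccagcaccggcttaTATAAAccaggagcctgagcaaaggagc
Hist1h2ac: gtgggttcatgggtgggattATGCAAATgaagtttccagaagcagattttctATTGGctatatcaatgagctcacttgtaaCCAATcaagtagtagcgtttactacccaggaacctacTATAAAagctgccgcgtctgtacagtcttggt
Hist1h2ab: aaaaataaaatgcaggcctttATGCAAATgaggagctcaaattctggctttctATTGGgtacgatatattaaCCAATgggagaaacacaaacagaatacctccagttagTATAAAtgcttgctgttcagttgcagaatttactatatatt
H1f0: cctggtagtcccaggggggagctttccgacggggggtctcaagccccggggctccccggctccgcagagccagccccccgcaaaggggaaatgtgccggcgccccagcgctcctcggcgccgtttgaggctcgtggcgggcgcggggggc
H2afy: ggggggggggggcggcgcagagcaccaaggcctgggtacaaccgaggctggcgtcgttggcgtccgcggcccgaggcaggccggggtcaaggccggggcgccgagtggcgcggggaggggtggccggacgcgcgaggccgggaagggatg

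Over the 250 bases before the start, 34 of the 39 members had a RefSeq entry. CCAAT was found in 25 of 28 clustered genes and in 4 of 6 variant genes, against 33.8% of all 32851 promoters in the table. TATAAA was found in 15 of 28 clustered and 1 of 6 variant genes, against 12.4% of all promoters. The octamer ATTTGCAT was found in 10 of 28 clustered and 1 of 6 variant genes, against 1.6% of all promoters. Hist1h2ac and Hist1h2ab, H2A genes whose measured differences in Ediff had opposite signs, each carried all 3 motifs. The call of Hist1h2ac in Ediff is no support, as given below. Hist1h1c and Hist1h1b each carried CCAAT, and TATAAA was found in Hist1h1b and not in Hist1h1c. None of the 3 was found before H1f0 or H2afy. CCAAT was found before 15 of 17 clustered genes that were called higher in Ediff and 5 of 6 that were called lower, TATAAA before 9 and 2, and ATTTGCAT before 4 and 3. The 6 include Hist1h2ac and Hist1h2be, whose calls in Ediff are no support.

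Signal is given on each array as the log2 processed signal minus that array's 75th percentile, and this is called the level. Each level is that of 1 probe, so that levels of different genes were not compared. The 75th percentile lay between 634.0 and 1014, between 419.6 and 693.9 and between 727.8 and 1228 in the 3 sets, and 76.0% to 93.8% of probes were well above background on an array. Groups were compared with limma within a set only, and a gene is called where its adjusted p over all genes tested was under 0.05. Differences had median standard errors of 0.26 in the first set, 0.15 in the second and 0.13 to 0.15 in the third. The sorted markers largely followed the labels, since Cd34 fell by 4.71 from CR Sca1lo to EryCP and was lower in CD34- than in CD34+ cells by -1.77. Itgae, which encodes CD103, was higher in CD34- CD103- than in CD34+ CD103- cells by 1.54 although both are labelled negative.

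Levels of some members differed between the array sets. Set and group cannot be told apart there. Hist1h2ab, a core H2A gene, had group means from 2.83 to 3.29 in the first set, from 2.52 to 3.70 in the second and from 6.47 to 6.96 in the third. EryCP cells, measured in both the first and the second set, had mean levels of 2.34 and 0.88 for the linker gene Hist1h1d, and of 3.88 and 3.99 for Hist1h1c. Histone genes are near-identical copies, and the probe sequences were not used here, so that a probe may also read other members of its family. The probe of Hist1h2aa, a gene known from testis, had group means of 8.12 to 8.84.

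**Figure D1:**
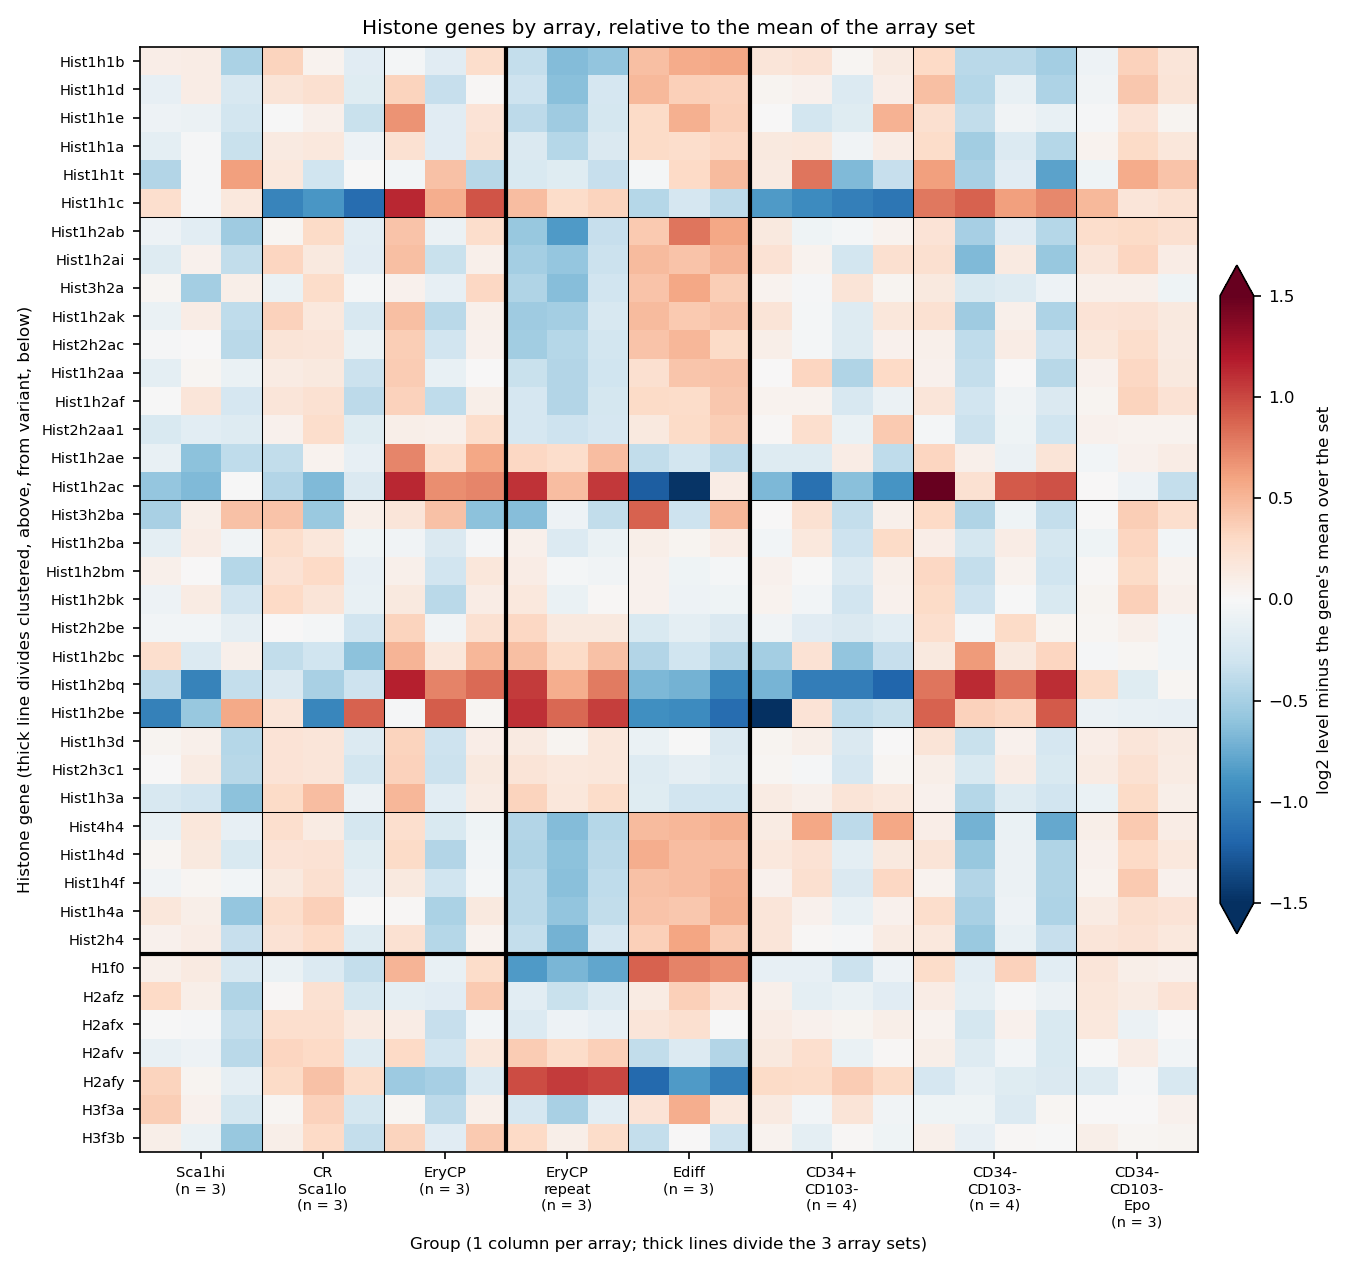
Levels of the 39 histone genes on the 26 arrays, each minus the gene's mean over its array set (colour, log2), with 1 column per array and 1 row per gene. The 18 clustered genes called higher in Ediff form blocks of H1, H2A and H4 genes, while Hist1h1c, Hist1h2ac, Hist1h2bc and Hist1h2bq are lower in Ediff than in EryCP repeat, higher in EryCP than in CR Sca1lo and higher in CD34- CD103- than in CD34+ CD103- cells. Hist1h2ac was well above background on 1 of 3 Ediff arrays, and its call there is no support.

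The first set compared sorted fractions of undifferentiated cells. Between CR Sca1lo and Sca1hi, 1 of 31 clustered genes and 0 of 7 variant genes were called by limma, where 3.66% of 26451 genes were called, 1.26% higher and 2.4% lower. At an unadjusted p under 0.05 the counts were 3 and 0, beside 3551 of the 26451 genes. The median difference of the clustered genes was 0.16, beside 0.04 for all genes. The called gene was Hist1h1c, a somatic linker histone gene. Its levels were 3.26, 2.99 and 3.17 in Sca1hi and 2.02, 2.14 and 1.87 in CR Sca1lo. Every CR Sca1lo array lay below every Sca1hi array, where 18.8% of all genes did not overlap, and the difference was -1.13 (SE 0.18, adjusted p = 0.0137). The call was lost without Sca1hi array 1 or 2, CR Sca1lo array 1 or 3, or slide 2 (adjusted p = 0.0542 to 0.0684), with differences of -1.20 to -1.04.

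Between EryCP and CR Sca1lo, 4 of 31 clustered genes were called higher and 0 lower, while 5.08% of all genes were called, 2.81% higher and 2.27% lower. The clustered genes as a list had a median difference of 0.01, beside -0.07 for all genes, so that these 4 stood apart from a list that lay near the rest. Hist1h1c was at 4.14, 3.56 and 3.95 in EryCP, above each CR Sca1lo array, and its difference was 1.87 (SE 0.18, adjusted p = 0.000691), or 3.66-fold. Hist1h2ac, an H2A gene, was at -4.38, -4.61 and -4.16 in CR Sca1lo and at -2.81, -3.24 and -3.22 in EryCP, a difference of 1.29 (SE 0.23, adjusted p = 0.0148). Hist1h2bq, an H2B gene, was at -3.27, -3.54 and -3.37 in CR Sca1lo and at -1.89, -2.32 and -2.22 in EryCP, a difference of 1.25 (SE 0.21, adjusted p = 0.0124). For both core histone genes the groups did not overlap, as for 18.1% of all genes. A further H2B gene, Hist1h2bc, was at 0.81, 0.88 and 0.56 in CR Sca1lo and at 1.69, 1.34 and 1.68 in EryCP, and it was called at an adjusted p of 0.0409 with a difference of 0.82 (SE 0.18).

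The calls of Hist1h2ac, Hist1h2bq and Hist1h2bc rested on few arrays. Without CR Sca1lo array 2 their adjusted p was 0.0667, 0.0599 and 0.0956, and without EryCP array 1 it was 0.0677, 0.0587 and 0.16. The differences were then 1.18, 1.18 and 0.89, and 1.15, 1.13 and 0.76. The call of Hist1h2ac was also lost without CR Sca1lo array 1, that of Hist1h2bq without slide 2, and that of Hist1h2bc without CR Sca1lo array 1 or 3, EryCP array 3 or slide 2 (adjusted p up to 0.149). With normexp background correction Hist1h2ac was at -0.35 and Hist1h2bq at -0.023, against the direction above, and 74 of all genes were called. The median of all genes was -0.53 there, below the values of both genes. The call of Hist1h1c was kept without each array in turn, and under normexp it was at 2.30 (adjusted p = 0.0862). Of the linker genes other than Hist1h1c, Hist1h1b differed by -0.05 and Hist1h1e by 0.32, and neither was called.

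From Sca1hi to EryCP, 3 of 31 clustered genes were called, all higher, where 6.57% of all genes were called, 3.29% higher and 3.27% lower. They were Hist1h2bq at 1.502 (SE 0.21, adjusted p = 0.00421), Hist1h2ac at 1.27 (SE 0.23, adjusted p = 0.0138) and Hist1h2ae at 0.89 (SE 0.20, adjusted p = 0.039). Hist1h1c differed by 0.74 with an adjusted p of 0.0531, with mean levels of 3.14 in Sca1hi, 2.01 in CR Sca1lo and 3.88 in EryCP. The 3 comparisons of this set share arrays. Each of its 3 slides held 1 array of each group, and with slide as a block 3, 5 and 6 clustered genes were called in the order above, in place of 1, 4 and 3, while 4773, 5289 and 5516 of all genes were called in place of 969, 1344 and 1737. The clustered medians within slides 1, 2 and 3 were 0.23, 0.053 and 0.18, then -0.078, -0.050 and 0.13, then 0.17, 0.086 and 0.25. Hist1h2ae was not called without any 1 of Sca1hi arrays 1 to 3 and EryCP arrays 1 and 3 (adjusted p up to 0.175), and Hist1h2ac was not called without Sca1hi array 1 or 2 or EryCP array 1 (adjusted p up to 0.0742). Under normexp Hist1h2ac and Hist1h2bq were at -0.60 and -0.14, beside a median of all genes of -0.48, and 98 of all genes were called.

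Of the variant genes, H2afy alone was called in the first set, between EryCP and CR Sca1lo. H2afy encodes macroH2A1, an H2A variant with a large extra domain that is known from silenced chromatin. Its levels were 4.12, 4.27 and 4.10 in CR Sca1lo and 3.28, 3.34 and 3.62 in EryCP, with no overlap and a difference of -0.75 (SE 0.17, adjusted p = 0.0468). The call was lost without any 1 of the 6 arrays (adjusted p = 0.0683 to 0.179), while the difference stayed between -0.86 and -0.69. The linker variant H1f0 differed by 0.45 (adjusted p = 0.364).

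In the third set, fractions with and without CD34 were compared. Between CD34- CD103- and CD34+ CD103- cells, 5 of 32 clustered genes were called higher and 0 lower, where 12% of 27351 genes were called, 5.93% higher and 6.07% lower. The median of the clustered genes was -0.13, beside -0.05 for all genes, and 7 of 32 were above 0. Within slides 6, 7 and 8 the clustered median was 0.13, -0.13 and -0.099, so that its sign turned, and with slide as a block 4 clustered genes were called higher and 1 lower. Hist1h2bq was at -2.38, -2.71, -2.71 and -2.86 in CD34+ CD103- cells and at -0.87, -0.55, -0.88 and -0.56 in CD34- CD103- cells. Its difference was 1.95 (SE 0.14, adjusted p = 6.24e-06), or 3.87-fold, and the groups were far apart. Hist1h1c was at 1.33, 1.23, 1.16 and 1.099 in CD34+ CD103- cells and at 2.97, 3.06, 2.79 and 2.90 in CD34- CD103- cells, a difference of 1.73 (SE 0.10, adjusted p = 1e-06). Hist1h2ac was at -4.74, -5.19, -4.69 and -4.95 in the first and at -2.42, -3.84, -3.15 and -3.11 in the second, a difference of 1.76 (SE 0.25, adjusted p = 0.000945). These 3 genes did not overlap between the groups, as for 16.8% of all genes, and kept their calls without each array in turn, and under normexp Hist1h2ac was at 0.57 (adjusted p = 0.197).

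Hist1h2bc and Hist1h2be, both H2B genes, were called less firmly. Hist1h2bc was at 2.83, 3.57, 2.76 and 3.00 in CD34+ CD103- cells and at 3.49, 3.99, 3.49 and 3.67 in CD34- CD103- cells, so that the groups overlapped, and its difference was 0.62 (SE 0.17, adjusted p = 0.0439). Hist1h2be was well above background on 4 of 4 arrays of CD34- CD103- cells and on 1 of 4 of CD34+ CD103- cells. It passed the filter on dim probes in this set only through CD34- CD103- cells, where it was high, so that its call (adjusted p = 0.0453) is no support, and 4 genes were called higher without it. Under slide as a block the adjusted p was 0.051 for Hist1h2bc and 0.0576 for Hist1h2be. The call of Hist1h2bc was lost without any 1 array but CD34+ CD103- array 2 (adjusted p up to 0.121). The call of Hist1h2be was lost without any 1 array but CD34+ CD103- arrays 1 and 2 (adjusted p up to 0.122). Under normexp Hist1h2be was at -0.12.

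H2afy again was the variant called, and lower. It was at 4.22, 4.21, 4.30 and 4.21 in CD34+ CD103- cells and at 3.67, 3.81, 3.74 and 3.70 in CD34- CD103- cells, a difference of -0.50 (SE 0.07, adjusted p = 0.00114) with no overlap. This call held without each array and under each other setting tried. Its second probe differed by -0.56. The histones H2afz and H2afv, both of the H2A.Z kind, which marks promoters, differed by 0.05 and -0.17 and were not called, nor were H2afx, H3f3a and H3f3b at -0.17, -0.13 and 0.03.

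**Figure D2:**
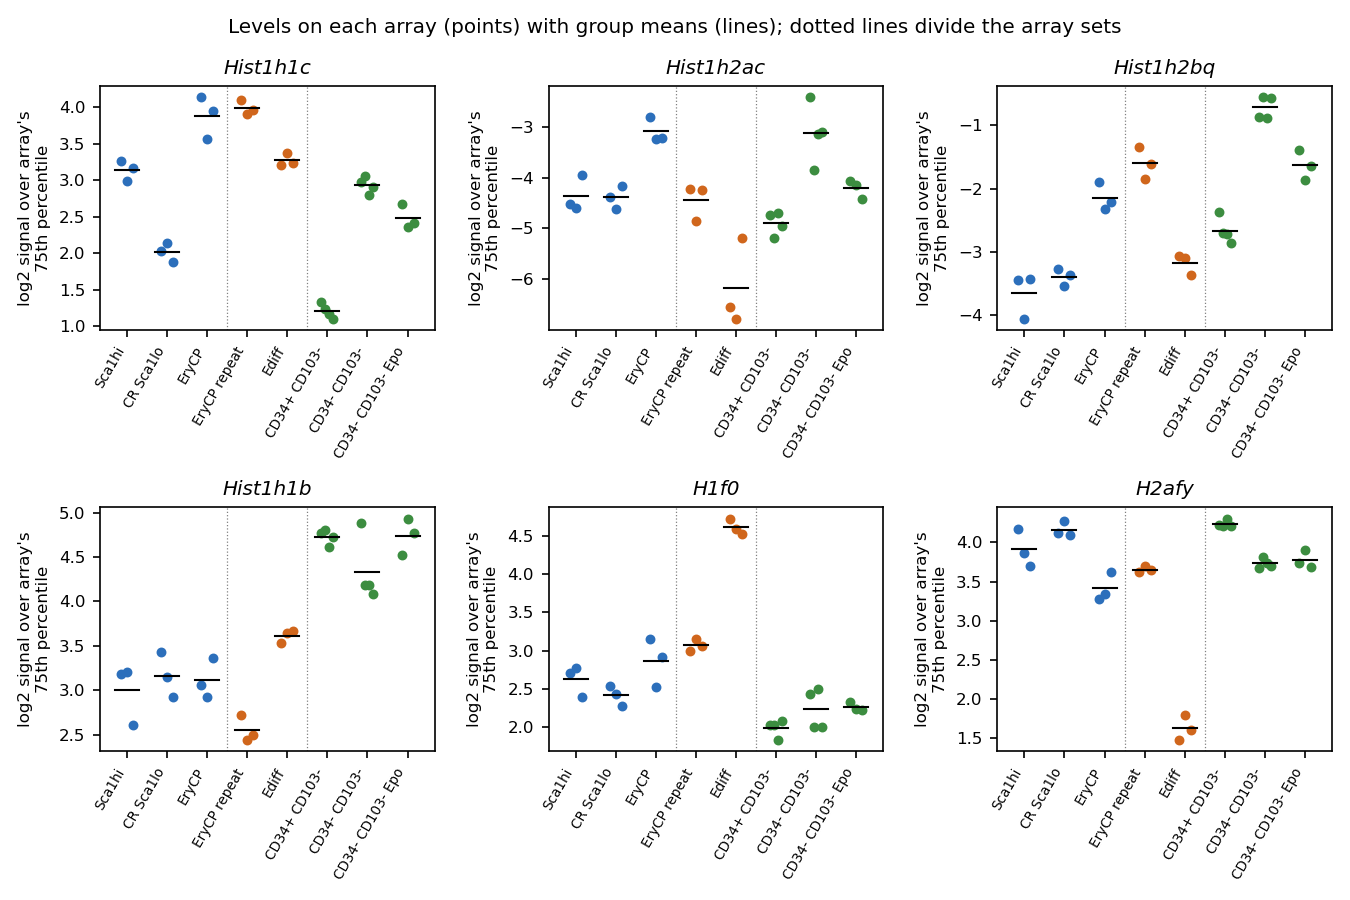
Levels of 6 histone genes on each array (points; vertical axis log2 signal over the array's 75th percentile) with group means (lines), coloured by array set. Hist1h1c, Hist1h2ac and Hist1h2bq are higher in EryCP than in CR Sca1lo and in CD34- CD103- than in CD34+ CD103- cells, and lower in Ediff than in EryCP repeat. Hist1h2ac was well above background on 1 of 3 Ediff arrays, and its call there is no support. H2afy is at 1.47 to 1.79 in Ediff.

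Markers of several cell types moved in the same comparisons as Hist1h1c, Hist1h2ac and Hist1h2bq. Of 8 erythroid markers 6 were called higher in EryCP than in CR Sca1lo (median 3.04) and 6 in CD34- CD103- than in CD34+ CD103- cells (median 2.55). Their summed linear level, relative to the 75th percentile, ran from 1.34 to 1.87 in CR Sca1lo, 12.9 to 15.5 in EryCP, 0.998 to 1.47 in CD34+ CD103- and 6.12 to 9.09 in CD34- CD103-. Of 6 mast cell markers 4 were called higher in EryCP than in CR Sca1lo and 4 in CD34- CD103- than in CD34+ CD103- cells, 5 were called lower in Ediff, and 4 lower after Epo in CD34- CD103- cells. The summed level of the mast cell markers ran from 167.8 to 239.5 in CR Sca1lo, 327.1 to 443.9 in EryCP, 249.3 to 291.3 in CD34+ CD103-, 415.6 to 440.2 in CD34- CD103- and 292.5 to 317.9 in CD34- CD103- Epo. It was 345.0 to 410.0 in EryCP repeat and 2.80 to 3.48 in Ediff, where 5 of the 6 were still well above background on every array. In Sca1hi it was 185.1 to 290.4. The part of mast cell or erythroid RNA in the histone values was not tested. The labelling kit is named in the labels but its primer is not, and how far messages without a poly(A) tail were copied was not tested.

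Among the comparisons made, the largest number of members was called between EryCP repeat and Ediff. Of 32 clustered genes 18 were called higher and 9 lower, where 56% of 24671 genes were called, 38.8% higher and 17.2% lower. The groups did not overlap for 28 of 32 clustered genes and for 63% of all genes, so that the members' share has to be read against a high background. The median of the clustered genes was 0.61, beside 0.44 for all genes, and 19 of 32 lay above the median of all genes. All 8 erythroid markers rose as well, with a summed linear level, relative to the 75th percentile, of 29.4 to 39.9 in EryCP repeat and 797.5 to 823.9 in Ediff.

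Among the clustered genes that were called higher, all 5 H4 genes, 5 of 6 H1 genes and 8 of 10 H2A genes rose, by 0.50 to 1.18, and 0 of 8 H2B and 0 of 3 H3 genes did. The H1 genes include Hist1h1d, whose second probe fell, so that its direction is not settled. They also include Hist1h1t, whose call was lost without any 1 of 5 arrays. Hist1h2ab was at 2.55, 2.26 and 2.77 in EryCP repeat and at 3.50, 3.91 and 3.69 in Ediff, a difference of 1.18 (SE 0.17, adjusted p = 0.00226). The linker gene Hist1h1b was at 2.73, 2.44 and 2.49 and then at 3.53, 3.64 and 3.67, a difference of 1.06 (SE 0.11, adjusted p = 0.000584). In both genes every Ediff array was above every EryCP repeat array. Of the H4 genes, Hist4h4 was at 3.02, 2.81 and 3.04 in EryCP repeat and at 3.93, 3.96 and 4.00 in Ediff, a difference of 1.01 (SE 0.10, adjusted p = 0.000454). Hist1h4d and Hist1h4f rose by 0.98 and 0.95. The H2A genes Hist1h2aa and Hist2h2ac rose by 0.72 and 0.82, and Hist1h1e by 0.79.

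These rises depend on what the arrays were scaled on. Scaled on the 9 spike-in probes, the median of all genes moved from 0.44 to -0.49, the share of called genes that were higher moved from 69.3% to 8.51%, and the clustered genes had a median of -0.33 with 0 called higher and 14 lower. Spike-in scaling moves all genes of an array by 1 amount, so that it cannot change a gene's place relative to the median of all genes. Of the 18 genes, 15 lay above that median under quantile normalization, 16 in the deposited value table and 14 with normexp. Normexp called 242 of all genes and 0 clustered ones in this comparison. Within the slides that held both groups, the clustered median was 0.75 and 0.53, beside 0.38 and 0.31 for all genes.

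**Figure D3:**
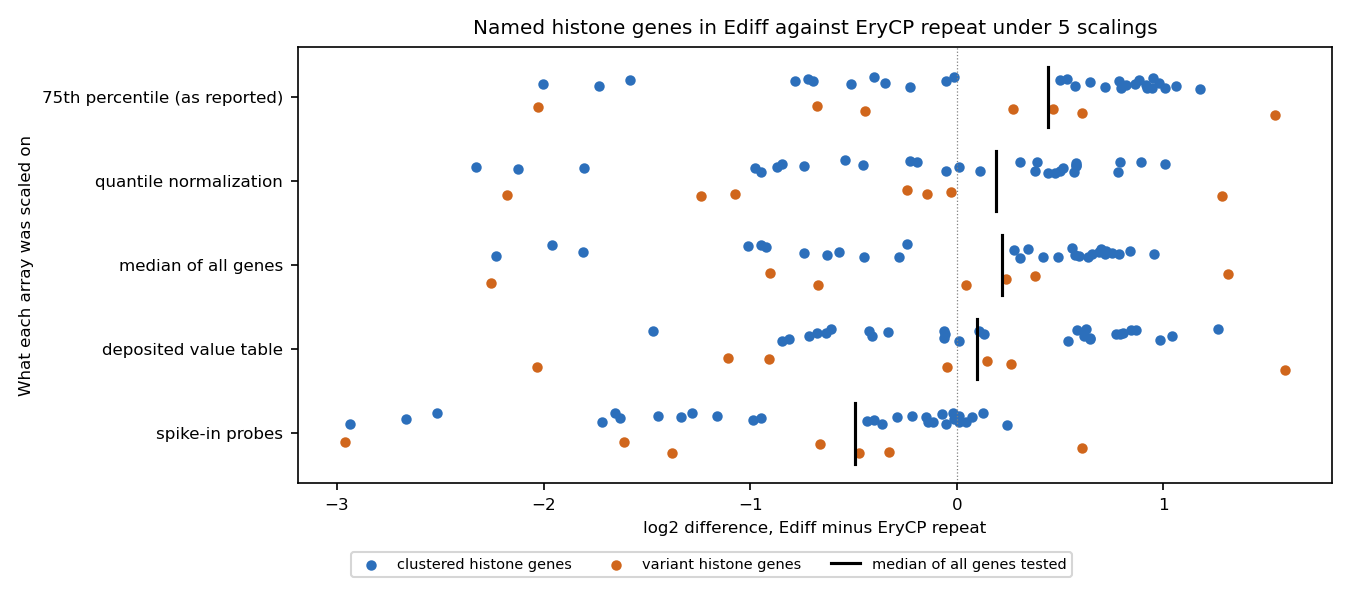
Log2 differences of the named histone genes between Ediff and EryCP repeat (points, 1 per gene) and the median of all genes tested (black lines) under 5 ways of scaling the arrays. The median of all genes lies at 0.44 as reported and at -0.49 on spike-in probes. Scaling on spike-in probes or on the median of all genes moves all genes of an array alike. Places relative to the median cannot change there. The genes shown were called in this comparison or named by rule, so that a split around the median is no test.

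The 9 clustered genes called lower were 4 of 8 H2B genes, 2 of 10 H2A genes, 2 of 3 H3 genes and 1 of 6 H1 genes, and 0 of 5 H4 genes. These counts include the H2B gene Hist1h2be and the H2A gene Hist1h2ac. Both were tested only through EryCP repeat, where they were higher, so that their calls are no support. The 9 genes were lower under every scaling tried, with differences from -2.94 to -0.33, and normexp turned 2 of them, Hist1h2ac and Hist1h2be, to 0.42 and 0.50. Hist1h2bq was at -1.34, -1.84 and -1.61 in EryCP repeat and at -3.07, -3.10 and -3.37 in Ediff, a difference of -1.58 (SE 0.16, adjusted p = 0.000527). Hist1h2bc was at 2.43, 2.27 and 2.42 and then at 1.54, 1.69 and 1.54, a difference of -0.78 (SE 0.10, adjusted p = 0.00114). Neither overlapped. Hist1h1c was at 4.10, 3.91 and 3.97 in EryCP repeat and at 3.20, 3.38 and 3.23 in Ediff, a difference of -0.72 (SE 0.10, adjusted p = 0.00186). The brightest probes of the other 5 H1 genes rose, Hist1h1d and Hist1h1t with the limits given above.

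Hist1h2be and Hist1h2ac reached the background in Ediff. Both were tested in this set only because EryCP repeat, where they were higher, passed the filter on dim probes, so that their calls are no support. In the first set Hist1h2be was not tested. Hist1h2be was at -5.60, -5.83 and -5.66 in EryCP repeat and was not well above background on any Ediff array. No size or lower bound of a fall is therefore given (adjusted p of the limma fit = 4.46e-05). Hist1h2ac was at -4.23, -4.85 and -4.25 in EryCP repeat and at -6.55, -6.78 and -5.20 in Ediff, well above background on 1 of 3 Ediff arrays, with a difference of -1.73 (SE 0.44, adjusted p = 0.0191). Its call was lost without Ediff array 1 or EryCP repeat array 1 or 3 (adjusted p up to 0.0652). Hist1h2ae fell by 0.70, Hist2h2be by 0.40 and the H3 genes Hist1h3a and Hist2h3c1 by 0.51 and 0.35. The H2B genes Hist1h2bk and Hist1h2bm differed by -0.05 and -0.02 and the H3 gene Hist1h3d by -0.22, and none of them was called. The remaining H2B genes, Hist3h2ba and Hist1h2ba, were higher in Ediff, Hist3h2ba by 0.72, and were not called either.

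**Figure D4:**
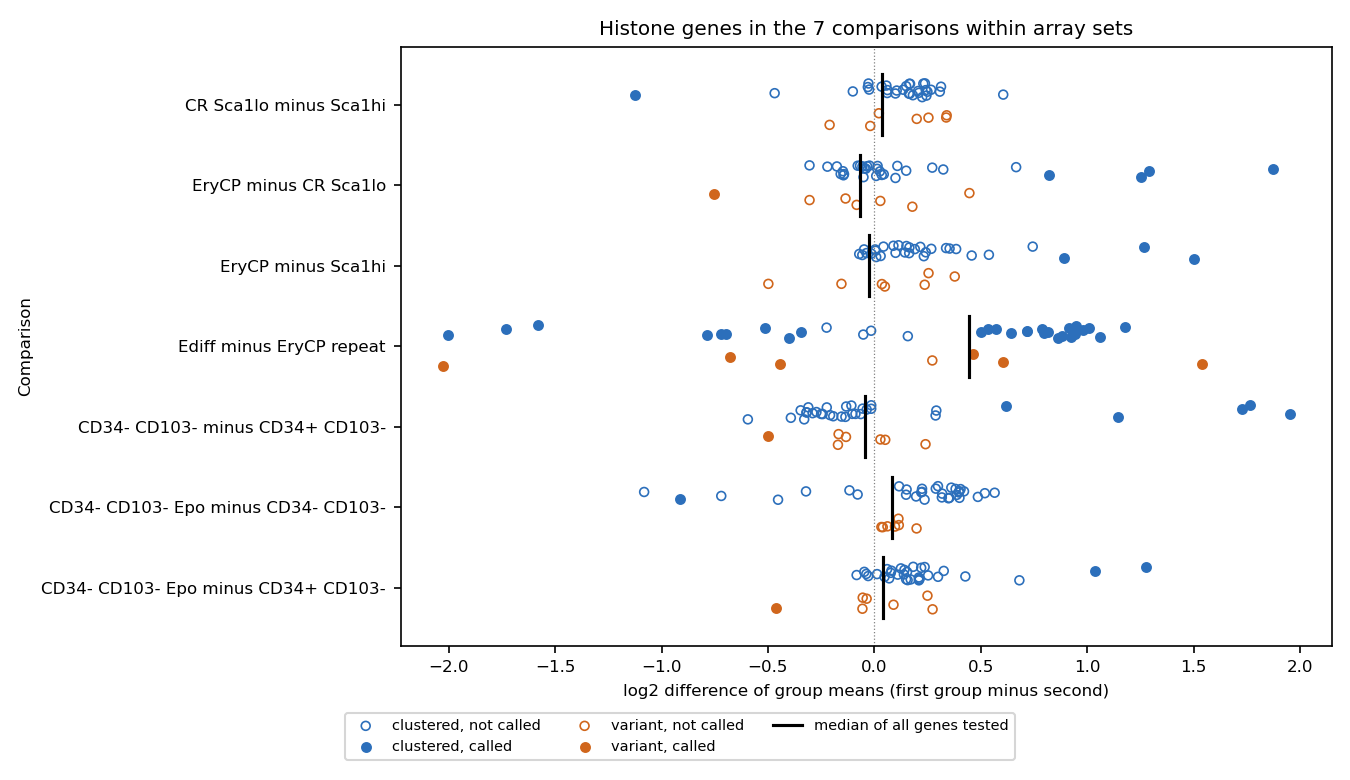
Log2 differences of clustered (blue) and variant (orange) histone genes in the 7 comparisons within array sets (points, 1 per gene; filled where called), with the median of all genes tested (black lines). Clustered genes split to both sides of the median in Ediff against EryCP repeat, and a few called genes stand to the right of the others in EryCP and in CD34- CD103- cells.

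The variant genes also split in Ediff: 3 of 7 were called higher and 3 lower, beside 38.8% and 17.2% of all genes. H2afy was at 3.62, 3.69 and 3.64 in EryCP repeat and at 1.47, 1.79 and 1.61 in Ediff. Its difference of -2.03 (SE 0.11, adjusted p = 3.83e-05) is 4.08-fold, its second probe differed by -2.23, and it was lower under every setting tried, normexp at -2.05 (adjusted p = 0.106). H2afv fell by 0.68 (SE 0.10, adjusted p = 0.00242), from 7.15, 7.04 and 7.12 to 6.39, 6.56 and 6.32. H2afz, which encodes the other H2A.Z, was at 7.79, 7.61 and 7.75 and then at 8.07, 8.31 and 8.16, called higher by 0.46 (SE 0.11, adjusted p = 0.0129). That direction flips to -0.24 under quantile normalization, -0.47 on spike-in probes and -0.047 in the deposited value table. On the scale used, H2afv lay below the median of all genes of 0.44 and H2afz near it.

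H3f3a and H3f3b, which encode the same replacement histone H3.3, were called in opposite directions. H3f3a was at 7.11, 6.88 and 7.21 in EryCP repeat and at 7.58, 7.92 and 7.53 in Ediff, a difference of 0.60 (SE 0.15, adjusted p = 0.0173), and it flips to -0.028 under quantile normalization and -0.33 on spike-in probes. Without EryCP repeat array 1 the adjusted p of H3f3a was 0.0517. H3f3b was at 7.64, 7.43 and 7.62 and then at 6.98, 7.34 and 7.03, a difference of -0.44 (SE 0.13, adjusted p = 0.0318). Its call was lost without Ediff array 1 or 3 or EryCP repeat array 1 or 3 (adjusted p = 0.0946 to 0.106). All 3 probes of each gene moved as its brightest did, H3f3a by 0.36 to 0.60 and H3f3b by -0.83 to -0.44. H2afx, whose protein is phosphorylated at DNA breaks, differed by 0.27 (adjusted p = 0.0651).

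Probes of the same gene disagreed for H1f0 and Hist1h1d. The brightest H1f0 probe was at 2.99, 3.16 and 3.06 in EryCP repeat and at 4.72, 4.59 and 4.52 in Ediff, a difference of 1.54 (SE 0.10, adjusted p = 7.89e-05). The other probes of H1f0 fell by 0.75 and 0.82 (adjusted p over all probes = 0.0056 and 0.00143), and the mean of the 3 differed by -0.0087. The direction of H1f0 in Ediff is therefore not settled by these arrays. The brightest Hist1h1d probe rose by 0.80, and the second probe fell by 1.17 (adjusted p over all probes = 0.000519). That second probe was also higher in EryCP than in CR Sca1lo by 1.29 (adjusted p over all probes = 0.021) and in CD34- CD103- than in CD34+ CD103- cells by 1.11 (adjusted p over all probes = 3.46e-06), where the brightest differed by -0.08 and -0.14. In these 3 comparisons its directions are those of Hist1h1c and Hist1h2bq, and of Hist1h2ac, whose call in Ediff is no support. The second probe of Hist1h1d was picked out after its values were seen.

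**Figure D5:**
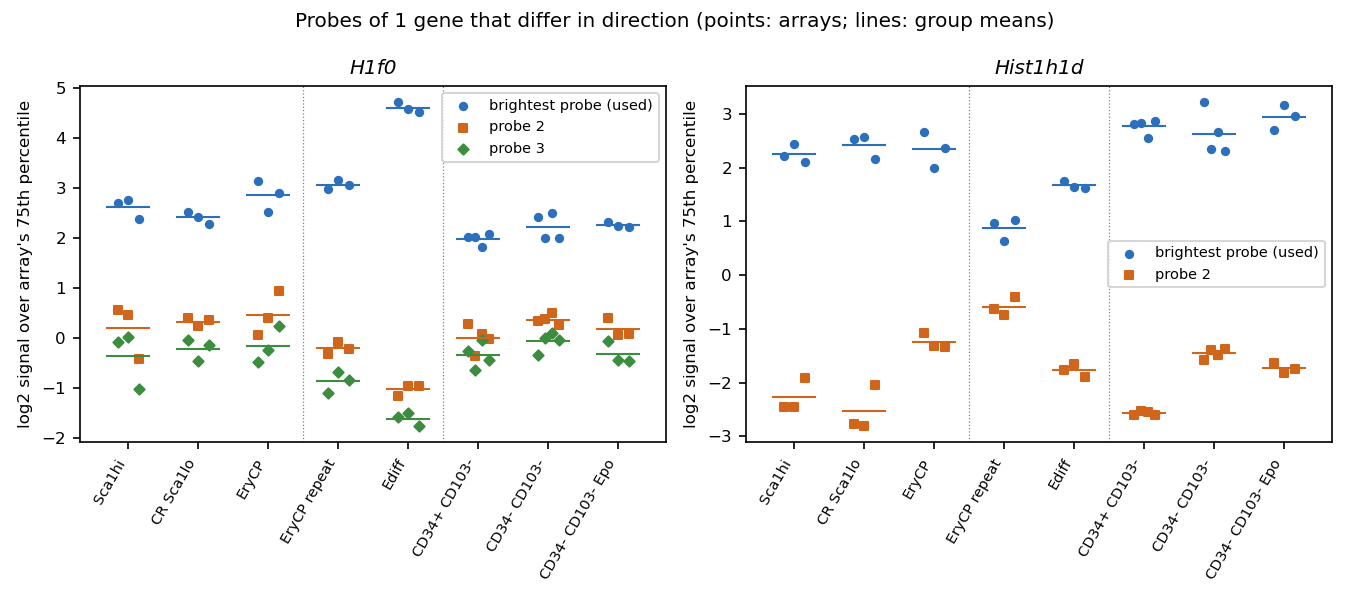
Levels of the 3 probes of H1f0 and the 2 probes of Hist1h1d on each array (points; vertical axis log2 signal over the array's 75th percentile) with group means (lines). In Ediff the brightest H1f0 probe is higher and the other 2 lower than in EryCP repeat, and the 2 Hist1h1d probes move in opposite directions.

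Epo given to CD34- CD103- cells changed few members. Of 32 clustered genes 0 were called higher and 1 lower, where 2.58% of all genes were called, 0.731% higher and 1.85% lower, and 13 were under an unadjusted p of 0.05, beside 4595 of the 27351 genes. The median of the clustered genes was 0.29, beside 0.08 for all genes, and it was -0.15 within slide 6 and 0.27 within slide 7, with 0.10 under slide as a block. The gene called was Hist1h2bq, at -1.38, -1.86 and -1.65 after Epo, below each array of CD34- CD103- cells, with a difference of -0.91 (SE 0.15, adjusted p = 0.00934). The call was lost without Epo array 2 or 3 (adjusted p = 0.0508 and 0.0547). Hist1h2ac and Hist1h1c differed by -1.08 and -0.45 with adjusted p of 0.0691 and 0.05, and their groups did not overlap either, as for 19.2% of all genes. Hist1h2be, tested in this set only through CD34- CD103- cells, was not well above background on any of the 3 arrays after Epo. Its measured level was 1.65-fold lower there, without a call (adjusted p = 0.337), and this is no lower bound.

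None of the 7 variant genes was called with Epo in this set, where their differences ran from 0.03 to 0.20, and 0 had an unadjusted p under 0.05. Against CD34+ CD103- cells, the cells after Epo had 2 of 32 clustered genes called, both higher, where 5.26% of all genes were called, 2.77% higher and 2.49% lower. These were Hist1h1c at 1.27 (SE 0.10, adjusted p = 7.62e-05) and Hist1h2bq at 1.04 (SE 0.15, adjusted p = 0.00282). H2afy was at 3.73, 3.90 and 3.68 after Epo and was called lower by -0.46 (SE 0.08, adjusted p = 0.00735), and it differed by 0.04 from CD34- CD103- cells without Epo. Of the erythroid markers 0 of 8 were called higher with Epo here and 1 was called lower, and their summed linear level was 6.12 to 9.09 without Epo and 4.46 to 5.13 with it.

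The difference between both Epo responses (Ediff minus EryCP repeat, minus CD34- CD103- Epo minus CD34- CD103-) was tested as 1 contrast over 13 arrays. The array set, the title prefix (EML or EMLe2), the starting fraction and the gate on the cells after Epo differ together here and cannot be told apart. Of 32 clustered genes 3 were called higher and 6 lower in the EryCP response, where 41.3% of 24484 genes were called, 25% higher and 16.3% lower. The balance depended on the processing: slide as a block called 16 higher and 6 lower, spike-in scaling 0 higher and 12 lower, and the values of the deposited table gave 7 higher and 4 lower. The median of the clustered genes was 0.33, as for all genes. Called higher were Hist3h2a at 0.81, Hist1h2ab at 0.69 and Hist1h1e at 0.64, and on spike-in probes these were at 0.10, -0.016 and -0.071. Called lower were Hist1h3a at -0.81, Hist1h2bq at -0.67, Hist1h2ae at -0.62, Hist2h3c1 at -0.57 and Hist1h2bc at -0.46. The sixth was Hist1h2be, whose signal was at or near background on 3 of 3 arrays of Ediff and 3 of 3 of CD34- CD103- Epo, so that no size is given, and its direction turned in the deposited value table. Leaving out single arrays ended the calls of Hist1h2bc (any of 10 arrays), Hist1h2ab (any of 9), Hist1h2bq (any of 7), the variant H3f3a (any of 4) and Hist1h1e (any of 2). Of the variants, H2afy was called at -2.07 (SE 0.13, adjusted p = 1.33e-07), H2afv at -0.79, H3f3b at -0.51, H3f3a at 0.51 (0.094 under quantile normalization and -0.20 on spike-in probes) and H1f0 at 1.51 on its brightest probe, or 0.12 on the mean of its probes.

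Genes that supply and handle histones were counted from a list of 35, of which 34 were on the arrays. In Ediff 17 of the 34 tested were called higher and 0 lower, beside 38.8% and 17.2% of all genes, with a median of 0.35 beside 0.44 for all genes. Slbp, which binds the stem-loop of clustered histone messages, rose by 0.48 (SE 0.09, adjusted p = 0.00602), and Npat, which drives their transcription, by 0.52 (SE 0.13, adjusted p = 0.0177). Lsm10 and Lsm11, of the particle that cuts the 3′ end of these messages, rose by 1.01 and 0.75, and the further variants H2afy2 and H1fx by 1.098 and 0.83. Of 19 S phase genes 12 were called higher and 1 lower, with a median of 0.60, among them Pcna at 0.69, Rrm2 at 0.73 and Mcm2 at 0.38. Like the clustered genes, these values stand against a median of all genes of 0.44. On spike-in probes that median was -0.49, and all genes of an array move alike there. The rises of the supply and S phase genes are therefore rises on the scale used.

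In the first set 0 of 33 supply genes were called in any comparison, beside 3.66% to 6.57% of all genes, and 2, 3 and 1 had an unadjusted p under 0.05. Between CD34- CD103- and CD34+ CD103- cells 1 of 33 was called higher, the cleavage factor gene Cpsf2 at 0.35, and 3 lower, which were the chaperone genes Hira at -0.41, Ssrp1 at -0.36 and Chaf1a at -0.33, where 12% of all genes were called. The median of the list was -0.09, and 0 of 19 S phase genes were higher and 2 lower. With Epo in CD34- CD103- cells the chaperone gene Nasp was the 1 gene called, at 0.35 (SE 0.07, adjusted p = 0.0294), where 2.58% of all genes were called. In the contrast of both Epo responses 9 of 33 were higher and 2 lower, beside 25% and 16.3% of all genes, led by Lsm10 at 0.95, Hira at -0.75, Cenpa at 0.70 and Cabin1 at 0.59. Slbp and Npat differed there by 0.31 and 0.49.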

How the data were processed

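Total RNA of 26 samples was labelled with Cy3 by linear amplification and hybridised to 1-colour Agilent mouse arrays with spike-in RNA, per the labels' protocols. The deposited scanner files hold the processed signal, a linear intensity, made with Feature Extraction 10.1.1.1 (the first and the second set) or 10.7.1.1 (the third), per the file headers. The deposited value table is in log2 units, and neither its scale nor its centring is stated. Its columns correlated with the scanner's log2 median signal at 0.9946 or more in the first and 0.997 or more in the second set, and with the log2 processed signal at 0.9998 or more in the third, with column medians of 7.088 to 7.292. It was used as an alternative only.

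Control spots and outlying spots (48 to 446 an array) were dropped, and a probe's repeated spots were averaged. Each array's 75th percentile of log2 processed signal was subtracted. The files hold no gene names, so that probes were named through their accession in the RefSeq annotation of GRCm38.p6, which gave symbols for 27071 of 41174 probes. A gene was read from its probe with the highest mean signal, and an unnamed probe counted as a gene. A gene was tested in a set where its probe was well above background on all arrays of some group in that set, which needed a share of 0.5 of the probe's spots or more.

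Groups were fitted per array set with limma 3.58.1 in R 4.3.3 (lmFit, eBayes, Benjamini-Hochberg adjustment over all genes tested), and the difference of Epo responses over both sets. Tables were read with the R package data.table (version 1.17.8), pandas 2.3.3 and numpy 2.4.6 in Python 3.11.15, and figures were drawn with matplotlib 3.10.9. Replicates correlated at 0.9677 to 0.9932, and none were identical. On simulated data, limma recovered 0% of genes changed by 0.5 on the log2 scale, 19.4% to 23.9% of those changed by 1 and 56.1% to 69.7% of those changed by 2 in the first set (26451 genes). For Ediff (24671 genes) it recovered 1.49%, 40.3% and 71.2%, and for CD34- CD103- against CD34+ CD103- cells (27351 genes) 29.9%, 68.7% and 92.4%. Only 66 or 67 genes were changed by each size, far fewer than were called in these comparisons (56% of genes in Ediff). The adjustment over all genes depends on that number, so that these shares are not the recovery of the reported comparisons.

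The members and lists were chosen with earlier results of these data known. Named were all variant genes, up to 8 called clustered genes a comparison by size, the 2 brightest genes of each family, Slbp, Npat and up to 4 called supply genes a comparison, Pcna, Mcm2 and Rrm2; others are named where a small count called for it. Alternatives were normexp on the median signal (offset 50, the mean signal not being in the files), quantile normalization, spike-in scaling, no filter, slide as a block, the deposited table, the mean of probes, eBayes with trend and robust, and single arrays left out.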

Additional observations from a re-analysis of the deposited data

Results flagged for a closer look

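In groups of 4 arrays, 3 of 78 sets of values had an array far from the others, where chance gives about 1 in 20. Hist1h1b stood at 4.888 on CD34- CD103- array 1, where the other arrays of the group were at 4.081 to 4.19. H2afy stood at 4.303 on CD34+ CD103- array 3 beside 4.206 to 4.216. Hist1h1d stood at 2.561 on the same array beside 2.812 to 2.863.

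A further 14 genes changed by different amounts under Epo in EryCP and in CD34- CD103- cells, tested as the difference of both responses by limma over all genes, of which 41.3% were called. The signed change was higher in EryCP for H1f0 by 1.508 (its brightest probe), Hist3h2a by 0.8064, Hist1h2ab by 0.6918, Hist1h1e by 0.637 and H3f3a by 0.5078. It was lower in EryCP for H2afy at -2.067, Hist1h3a at -0.8109, H2afv at -0.7918 and Hist1h2bq at -0.6666. H2afy differed by -2.03 with Epo in EryCP and by 0.04 in CD34- CD103- cells. Hist1h2be came out at -1.284, but its signal was at or near background on 3 of 3 arrays of Ediff and 3 of 3 of CD34- CD103- Epo, so that this value is no size of a change. Hist1h2ae was at -0.6188, Hist2h3c1 at -0.5695, H3f3b at -0.5055 and Hist1h2bc at -0.4634. Their adjusted p ran from 1.33e-07 for H2afy to 0.0464 for Hist1h2ab.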

How the results depend on the processing

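Values are log2 differences, and the cause of each change named here was not tested. With normexp, limma called 0 clustered genes for CR Sca1lo against Sca1hi, EryCP against CR Sca1lo, EryCP against Sca1hi, Ediff against EryCP repeat and the difference of Epo responses, and 3 for CD34- CD103- against CD34+ CD103- cells. It called 2, 74, 98, 242, 862 and 2365 of all genes there, against 969, 1344, 1737, 13812, 10117 and 3283 as reported. Its clustered medians were 0.36 for EryCP against CR Sca1lo, 0.46 for EryCP against Sca1hi and 0.43 for Ediff, beside -0.53, -0.48 and 0.40 for all genes. It reversed Hist1h2ac to -0.35 and Hist1h2bq to -0.023 in EryCP against CR Sca1lo, to -0.60 and -0.14 against Sca1hi, Hist1h2ac to 0.42 and Hist1h2be to 0.50 in Ediff, and Hist1h2be to -0.12 in CD34- CD103-. In the difference of Epo responses it reversed Hist1h2ae to 0.021, Hist1h2be to 0.28 and Hist1h2bq to 0.55.

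Spike-in scaling called 14 clustered genes in Ediff with a median of -0.33, 10 in CD34- CD103- against CD34+ CD103- cells (3 higher, 7 lower) with a median of -0.36, and 4 in Epo against CD34+ CD103- cells with a median of -0.30. The median for Epo against CD34- CD103- cells was 0.067. The share of called genes that were higher moved from 49.4% to 14.0% for CD34- CD103- against CD34+ CD103- cells, from 28.4% to 1.63% and from 52.6% to 1.75% for Epo against CD34- and CD34+ CD103- cells, and from 60.5% to 12.2% for the difference. In Ediff it reversed H2afx to -0.66, H2afz to -0.47, H3f3a to -0.33, Hist1h1a to -0.36, Hist1h1d to -0.14, Hist1h1e to -0.15, Hist1h1t to -0.43, Hist1h2aa to -0.22, Hist1h2af to -0.29, Hist1h2ak to -0.073, Hist1h4a to -0.019, Hist2h2aa1 to -0.40, Hist2h2ac to -0.12, Hist2h4 to -0.052 and Hist3h2a to -0.012. It also reversed Hist1h1b to -0.44 in Epo against CD34+ CD103- cells and, in the difference, H3f3a to -0.20, Hist1h1e to -0.071 and Hist1h2ab to -0.016.

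Quantile normalization gave a median of 0.21 in Ediff, where 58.7% of called genes were higher, called 2 genes in Epo against CD34- CD103- cells, and reversed H2afz to -0.24, H3f3a to -0.028 and Hist1h2af to -0.051. The deposited table gave a median of 0.15 in Ediff and 3 genes with Epo, and reversed H2afz to -0.047 and Hist1h2af to -0.063 in Ediff and Hist1h2be to 0.29 in the difference. The mean of probes reversed H1f0 to -0.0087 and Hist1h1d to -0.19 in Ediff and called 2 genes with Epo. Slide as a block called 3, 6, 2 and 22 genes for CR Sca1lo against Sca1hi, EryCP against Sca1hi, Epo against CD34- CD103- cells and the difference (16 higher, 6 lower), with a median of 0.10 in the third. With trend and robust, 3 genes were called with Epo and 14 in the difference, and without a filter 3 in CD34- CD103- against CD34+ CD103- cells. Chosen after seeing the data, centring on the median of all genes called 0 for CR Sca1lo and 2 for EryCP against CR Sca1lo, with a median of 0.38 in Ediff, and leaving out slide 2 called 0 and 2.

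With 1 array left out, the counts ran from 0 to 1, 1 to 4 and 1 to 4 in the first set and from 23 to 27 in Ediff. They ran from 3 to 8 for CD34- CD103- against CD34+ CD103- cells. For Epo against CD34- and CD34+ CD103- cells they ran from 0 to 5 and 2 to 2, and for the difference from 5 to 15. The clustered medians ran from 0.08 to 0.25, -0.14 to 0.14, 0.03 to 0.32, 0.56 to 0.64, -0.26 to -0.04, 0.21 to 0.38 and 0.09 to 0.20 in the first 7, in this same order. Hist1h1c, Hist1h2bq and H2afy kept their calls between CD34- CD103- and CD34+ CD103- cells under each alternative run. No paired analysis was possible because the labels number the arrays in 1 running series and give no number that groups share. Slides, which held 1 array of each group in the first set, were used as a block instead, as given above. The directions of the dim probes of Hist1h2be, Hist1h2ac and Hist1h2bq turned with the background correction in the comparisons above, and 3 or 4 arrays a group limit the precision.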
